A study of Cavia porcellus with 10 samples.

Results

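Of the 10 genes listed as FGFBP1, FGF ligands and FGF receptors, 9 have a row among the 25028 genes of the guinea pig cervix, and their transcript levels are described here in 3 reproductive stages. The genes were found by their gene name, 8 of them by an exact match and FGF2 under its name with a species suffix. FGFR2 was not analysed here. FGFBP1 was chosen by its rise in TPM through pregnancy in these same animals, so that its rise is a description and carries no test. The other genes were listed for their family, but with earlier results of these data known, so that their tests are not free of that choice.

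Cervical tissue came from Hartley guinea pigs without any treatment: 3 non-pregnant females in estrus (NP), 3 females in mid-pregnancy at 43.6 ± 0.5 days (MT, SD) and 4 females in late pregnancy at 65.2 ± 1.2 days and not in labor (LT, SD). The vaginal portion of the cervix was sampled whole, each animal gave 1 library of poly(A) RNA, and the ages of the animals are not given in the sources used here. For each gene and animal the authors deposited the reads counted and the transcript abundance as TPM, a unit that corrects for gene length and sequencing depth, so that levels of different genes can be set side by side. Between 18730665 and 27881572 reads were counted per animal.

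Fibroblast growth factors (FGFs) are secreted ligands that signal through receptor tyrosine kinases of the FGFR family, mostly with heparan sulfate as a cofactor. Many of them stay bound to heparan sulfate in the matrix, and FGFBP1 is a secreted carrier protein that binds FGF1, FGF2, FGF7 and FGF10 and releases them from this store. FGF7 and FGF10 are typically made by stromal cells and act on an epithelial splice form of FGFR2, whereas FGF1 can activate all of the receptors. Signaling runs through adaptors and the RAS-MAPK cascade, and is limited by inhibitors such as the Sprouty proteins, which the pathway itself induces.

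Markers of squamous and columnar epithelium, fibroblasts, smooth muscle, endothelium and leukocytes were all present in the tissue. In NP replicate 1 the summed TPM of the squamous markers was 3390 and that of the smooth muscle markers 30766, against 1061 to 1102 and 8168 to 10523 in the other NP animals. The squamous sum of MT replicate 1 was 1390, and it was 193 and 457 in the other MT animals. In whole tissue, fewer cells of a type and less RNA per cell cannot be told apart. Each stage enters more than 1 comparison, so the comparisons share animals.

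FGFBP1 (ENSCPOG00000021732) changed from one of the least abundant of these genes in NP to the most abundant in LT. The NP animals had 0.773, 0.487 and 0.651 TPM, which rest on 6 to 13 reads. The MT animals had 123, 16.7 and 39.0 TPM, from 202 to 1472 reads. The LT animals had 186, 345, 366 and 575 TPM, from 3250 to 9998 reads. Every animal of a later stage was above every animal of an earlier stage.

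The stage means of FGFBP1 were 0.637 ± 0.143 TPM (NP), 59.7 ± 56.2 TPM (MT) and 368 ± 160 TPM (LT) (SD, n = 3, 3 and 4). As ratios of these means, MT was 93.6 times NP, LT was 6.17 times MT and LT was 577 times NP. By its mean the gene ranked 14160 of all genes in NP, 2720 in MT and 357 in LT. On the log2(TPM + 1) scale, which understates changes of low values, the differences were 4.77 from NP to MT, 2.94 from MT to LT and 7.71 from NP to LT. With each animal left out in turn they lay between 4.03 and 5.43, between 2.28 and 3.68, and between 7.46 and 8.001. The spread among MT animals was the widest of any stage, with a coefficient of variation of 94.2%, against 43.4% in LT and 22.5% in NP.

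Within MT and within LT the animals stood in the same order for FGFBP1 and for the summed TPM of the squamous epithelium markers. Not every single marker kept this order, as IVL and TGM1 did not in LT. The list names 15 markers, of which 8 have a row and 7 were tested. Its sums were 3390, 1102 and 1061 TPM in NP, 1390, 193 and 457 TPM in MT, and 1608, 2526, 2806 and 3198 TPM in LT. Most of the sum is KRT14, a keratin of basal squamous cells. Without KRT14, a check chosen after the values were seen, the order of the MT and LT animals was the same, at 248, 60.0 and 88.0 TPM in MT and at 177, 273, 342 and 395 TPM in LT. With KRT14, the sum in NP was above the range of LT in replicate 1 and below it in the other animals. Without KRT14, NP replicate 2 was within the range of LT, at 183 TPM. FGFBP1 stayed under 1 TPM in all NP animals. Of the 7 tested markers, KRT14 was called higher from MT to LT at a limma adjusted P under 0.05 and none was called lower, and 3 were lower and none higher from NP to MT. Of all tested genes 6.73% were higher and 22.7% lower from MT to LT, and 6.27% and 12.2% from NP to MT. IVL and SPRR3 reached the mean of 3 TPM needed for testing only in NP, where they were high. TGM1 did so only in NP and LT, so the count of lower markers is not independent of that selection. Markers of cornifying cells took different courses: SPRR3 was at 0 in all LT animals and IVL at 0.185 to 1.12 TPM there, whereas TGM1 was at 1.25 to 3.25 TPM in MT and 5.93 to 9.45 TPM in LT. The desmosome genes DSG3 and PKP1 were at 28.7 to 81.1 and 111 to 257 TPM in LT, and overlapped with MT.

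The columnar and secretory epithelium markers followed another course. Of 12 markers, 9 have a row, and their summed TPM was 1078 to 1264 in NP, 2173 to 3032 in MT and 1994 to 2384 in LT. Among the 7 tested, 4 were higher and 1 was lower from NP to MT, against 6.27% and 12.2% of all genes. Between MT and LT limma called none of them, against 29.4% of all genes. None had an unadjusted P under 0.05 in this step, and edgeR called 1 higher. The part of either epithelium in the level of FGFBP1 was not tested.

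**Figure D1:**
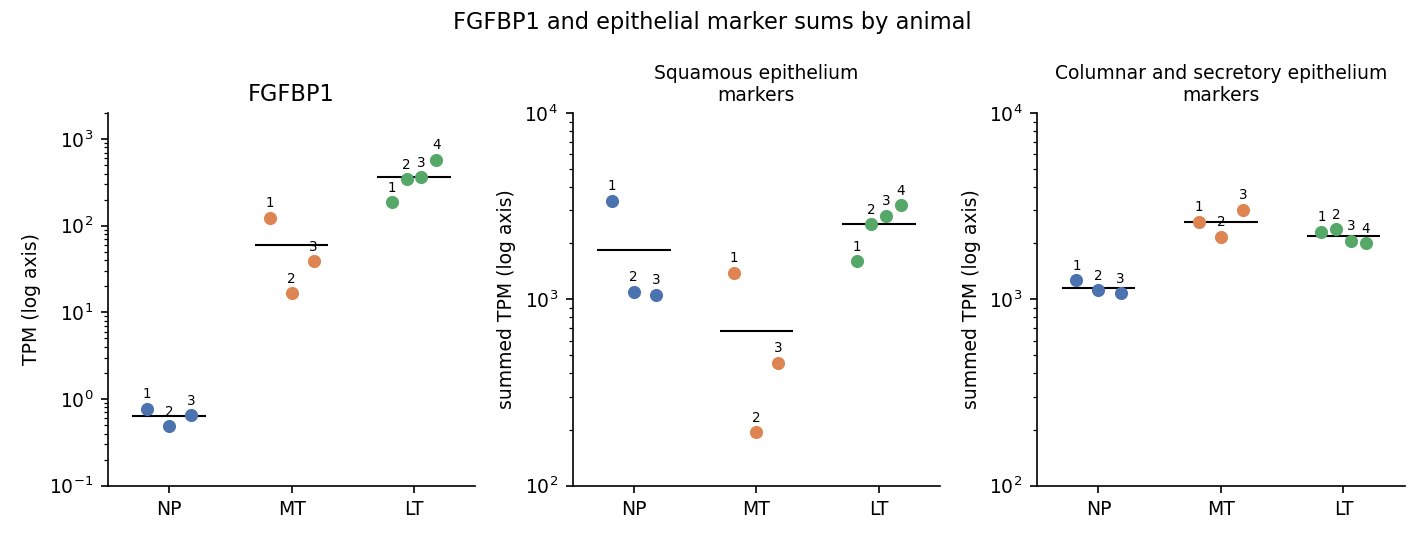
FGFBP1 TPM and the summed TPM of the squamous and of the columnar and secretory epithelium markers in each animal, on log axes, for NP, MT and LT. Points are animals, numbered by replicate, and lines are stage means. FGFBP1 stays under 1 TPM in NP and reaches 575 TPM in LT replicate 4, whereas the squamous sum of NP replicate 1 (3390) is above that of every LT animal.

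The genes whose course over the 10 animals was nearest to that of FGFBP1 were PLA2G10, LRRC26, BPIFB1, AGR2, FCGBP and CLCA1, in this order. Nearness was measured as the root mean square difference in log2(TPM + 1) after each gene was centred on its own mean, among 11411 tested genes with a name. It ranged from 0.866 for PLA2G10 to 1.39 for CLCA1, and FGFBP1 itself varied by 3.28 about its mean. PLA2G10 is a secreted phospholipase A2, AGR2 a protein disulfide isomerase needed for mucin folding, and FCGBP and CLCA1 are secreted with mucus. LRRC26 is a subunit of a potassium channel of secretory epithelia, and BPIFB1 is a secreted protein of mucosal surfaces. AGR2 was the most abundant of them, at 154 ± 58.9 TPM (NP), 2255 ± 883 TPM (MT) and 6718 ± 847 TPM (LT) (SD). BPIFB1 went from 13.6 ± 2.46 TPM (NP) to 239 ± 344 TPM (MT) and 1085 ± 488 TPM (LT). LRRC26 went from 1.69 ± 0.921 to 60.3 ± 48.1 and 132 ± 10.9 TPM. These values describe the likeness of the courses and are not a test.

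For the ligands and receptors, changes in log2(TPM + 1) were assessed by limma in 1 fit over the 10 animals, adjusted over the 12645 genes whose mean reached 3 TPM in 1 stage or more. Of the 8 ligands and receptors 7 passed this filter, and FGFR4 did not. FGF18 passed only through NP and FGF10 only through NP and MT, so that the counts that follow are no support for a change of the group. From NP to MT, 3 of the 7 were called at an adjusted P under 0.05, 2 higher and 1 lower, where 18.5% of all tested genes were called (6.27% higher and 12.2% lower). Between MT and LT 2 of the 7 were lower and none was higher, against 29.4% of all genes called (6.73% higher and 22.7% lower). Between NP and LT 2 were higher and 1 was lower, against 53.1% (11.2% higher and 41.9% lower). The animals of the 2 stages did not overlap for 3 of the 7 genes from NP to MT, 2 higher and 1 lower, and this held for 34.9% of all tested genes (11.4% higher and 23.5% lower). It held for 1 gene higher and 2 lower from MT to LT, against 46.3% of all genes (10.8% higher and 35.5% lower), and for 2 higher and 1 lower from NP to LT, against 52.4% (11.8% higher and 40.6% lower). The median log2 change of all tested genes was -0.14 from NP to MT, -0.16 from MT to LT and -0.28 from NP to LT. After median-ratio scaling of the libraries, the calls over all genes were split into 1313 higher and 979 lower from NP to MT in place of 793 and 1549. Between MT and LT they were split into 1776 and 1939 in place of 851 and 2872, and from NP to LT into 3128 and 3157 in place of 1417 and 5301.

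**Figure D2:**
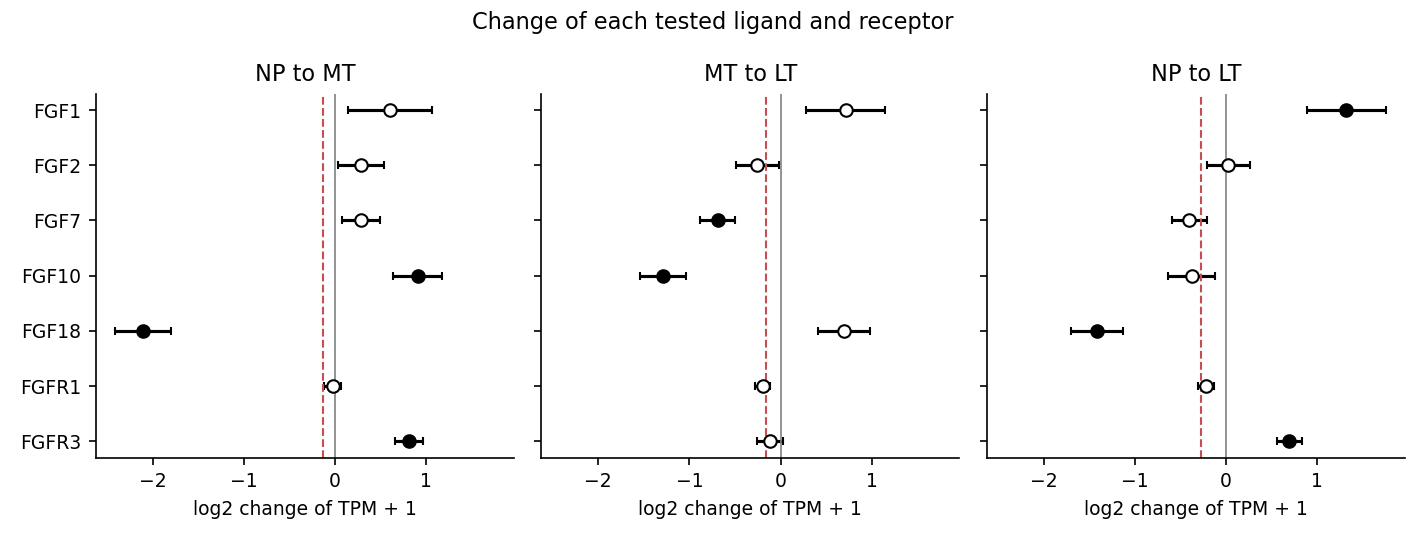
Log2 change of TPM + 1 for the 7 tested ligands and receptors in the 3 comparisons, with standard errors as bars. Filled points have a limma adjusted P under 0.05 over all tested genes, the grey line is 0 and the dashed line is the median of all genes. FGF10 is above 0 from NP to MT (0.91) and below it from MT to LT (-1.28), and FGF18 has the largest decrease (-2.11).

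Among the ligands, FGF7 (ENSCPOG00000003460), the keratinocyte growth factor, was by far the most abundant in every stage. It was at 239, 160 and 129 TPM in NP, at 189, 212 and 224 TPM in MT and at 160, 124, 116 and 119 TPM in LT. No LT animal reached the level of any MT animal, and the NP animals overlapped with both. The means were 176 ± 56.8 TPM (NP), 209 ± 18.1 TPM (MT) and 130 ± 20.5 TPM (LT) (SD, n = 3, 3 and 4). FGF7 fell by 0.69 on the log2 scale from MT to LT (limma adjusted P = 0.0248, standard error 0.19; on square-root TPM the exact permutation test gave P = 0.0286, the lowest value 3 animals against 4 can give). Relative to the median of all genes the change was -0.53, and after median-ratio scaling its adjusted P was 0.108, with 0.116 in edgeR on the read counts. In the step into MT its log2 change was 0.29 (adjusted P = 0.348), and 0.53 without NP replicate 1 (adjusted P = 0.031). Its call from MT to LT was lost without MT replicate 2 or 3 and without LT replicate 2, 3 or 4, with adjusted P between 0.0557 and 0.0789. Over the 3 stages the exact permutation test of the F statistic for FGF7 gave P = 0.0567, and 0.208 after median-ratio scaling.

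FGF10 (ENSCPOG00000006429), the closest relative of FGF7 in receptor use, was far less abundant and was highest in MT. It was at 4.45, 5.33 and 2.67 TPM in NP, at 6.95, 11.7 and 7.24 TPM in MT and at 2.51, 2.96, 4.04 and 2.19 TPM in LT, from 32 to 123 reads per animal. Every MT animal exceeded all NP and LT animals, and NP and LT overlapped. FGF10 rose by 0.91 on the log2 scale from NP to MT (standard error 0.27, limma adjusted P = 0.0435; exact permutation test, P = 0.1, the lowest value 3 animals against 3 can give). The change from MT to LT was -1.28 (limma adjusted P = 0.0066, standard error 0.25), and the exact permutation test gave P = 0.0286. Over the 3 stages the exact permutation test of the F statistic on square-root TPM gave P = 0.00381. The fall toward LT kept an adjusted P under 0.05 in all alternative settings, where the highest was 0.0366. The rise into MT lost it without NP replicate 3, without MT replicate 2 or 3 and without LT replicate 1, 2 or 4, with adjusted P between 0.0518 and 0.137, and in a fit of only the NP and MT animals (0.0981). It was also lost with a pseudocount of 0.1 (0.0515), without a filter (0.0591; 0.0522 in edgeR) and with the replicate block (0.0732). FGF7 was 18.1 to 31.0 times as abundant as FGF10 within each MT animal, 30.1 to 53.7 times in NP and 28.8 to 63.9 times in LT.

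The summed TPM of the 8 fibroblast markers with a row, of 10 listed, was 6309 to 10790 in NP, 5395 to 10175 in MT and 6336 to 9445 in LT. Most of this sum is COL1A1 and COL1A2, the chains of type I collagen. Without both genes the sum was 416 to 747 TPM in NP, 420 to 504 in MT and 571 to 670 in LT, so that LT was above MT. Of the 8, 1 was lower and none was higher from NP to MT, and from MT to LT 1 was higher and 2 were lower, against 12.2% of all genes lower in the first of these steps and 6.73% higher and 22.7% lower in the other. After median-ratio scaling none was called from NP to MT, and 1 was higher and 1 lower from MT to LT. The markers called lower from MT to LT before scaling were the receptors PDGFRA and PDGFRB. PDGFRA was at 60.2, 89.6 and 73.1 TPM in MT and at 35.0, 20.5, 23.6 and 18.3 TPM in LT, and PDGFRB at 39.7 to 47.4 TPM in MT and 22.8 to 35.7 TPM in LT. The matrix proteoglycan LUM went the other way, from 111 to 134 TPM in MT to 179 to 290.2 TPM in LT. The part of these markers in the levels of FGF7 and FGF10 was not tested.

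FGF1 (ENSCPOG00000004040), which binds all of the receptors, was at 3.61, 5.32 and 3.94 TPM in NP, at 3.39, 6.85 and 13.7 TPM in MT and at 6.24, 15.1, 21.0 and 10.4 TPM in LT. Each LT animal was above each NP animal, while MT spanned the range of NP and much of that of LT. From NP to LT FGF1 rose by 1.32 on the log2 scale (standard error 0.43, limma adjusted P = 0.0271; exact permutation test, P = 0.0571). The call was lost without NP replicate 1 or 3 and without LT replicate 2 or 3, with adjusted P between 0.0642 and 0.0722. The log2 changes of the single steps were 0.60 from NP to MT (adjusted P = 0.379) and 0.71 from MT to LT (adjusted P = 0.232). Over the 3 stages the exact permutation test of the F statistic for FGF1 gave P = 0.101.

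FGF2 (ENSCPOG00000005386), a matrix-bound ligand without a classical secretion signal, was not called in any comparison. It was at 11.3, 16.6 and 21.4 TPM in NP, at 23.9, 15.2 and 20.7 TPM in MT and at 20.8, 14.5, 18.3 and 12.5 TPM in LT. The stages overlapped, and the exact permutation test of the F statistic gave P = 0.537. The ratio of FGF1 to FGF2 was 0.185 to 0.321 in the NP animals, 0.142 to 0.660 in MT and 0.3002 to 1.15 in LT, where only replicate 1 was in the NP range.

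FGF18 (ENSCPOG00000006088), known for its role in cartilage and bone growth, was near the threshold of 3 TPM in NP and below it in pregnancy. The NP animals had 3.82, 4.18 and 8.28 TPM from 44 to 98 reads. The MT animals had 0.391, 0.387 and 0.499 TPM from 4 to 7 reads. The LT animals had 0.602, 1.81, 1.61 and 1.41 TPM from 9 to 29 reads. All 3 stages were apart, with NP highest and MT lowest.

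FGF18 fell by 2.11 on the log2 scale from NP to MT (standard error 0.31, limma adjusted P = 0.00222), a 12.7-fold lower mean TPM. It was lower in LT than in NP by a log2 change of -1.41 (limma adjusted P = 0.00274, standard error 0.29), with P = 0.0286 in the exact permutation test. FGF18 entered this fit only through NP, where it was high, so the fit is not independent of that selection. In the fit without a filter the adjusted P was 0.00251 from NP to MT and 0.00268 from NP to LT. The exact permutation test of the F statistic, which was run on the listed ligands and receptors without a filter, gave P = 0.000952. In the step to LT the log2 change was 0.70 (adjusted P = 0.0919; exact permutation test, P = 0.0571). In this step it was 1.38 with a pseudocount of 0.1 (adjusted P = 0.0395), 1.81 in edgeR on the counts (adjusted P = 0.0212) and 1.84 in DESeq2 (adjusted P = 0.008), and without LT replicate 1 the adjusted P was 0.0455.

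**Figure D3:**
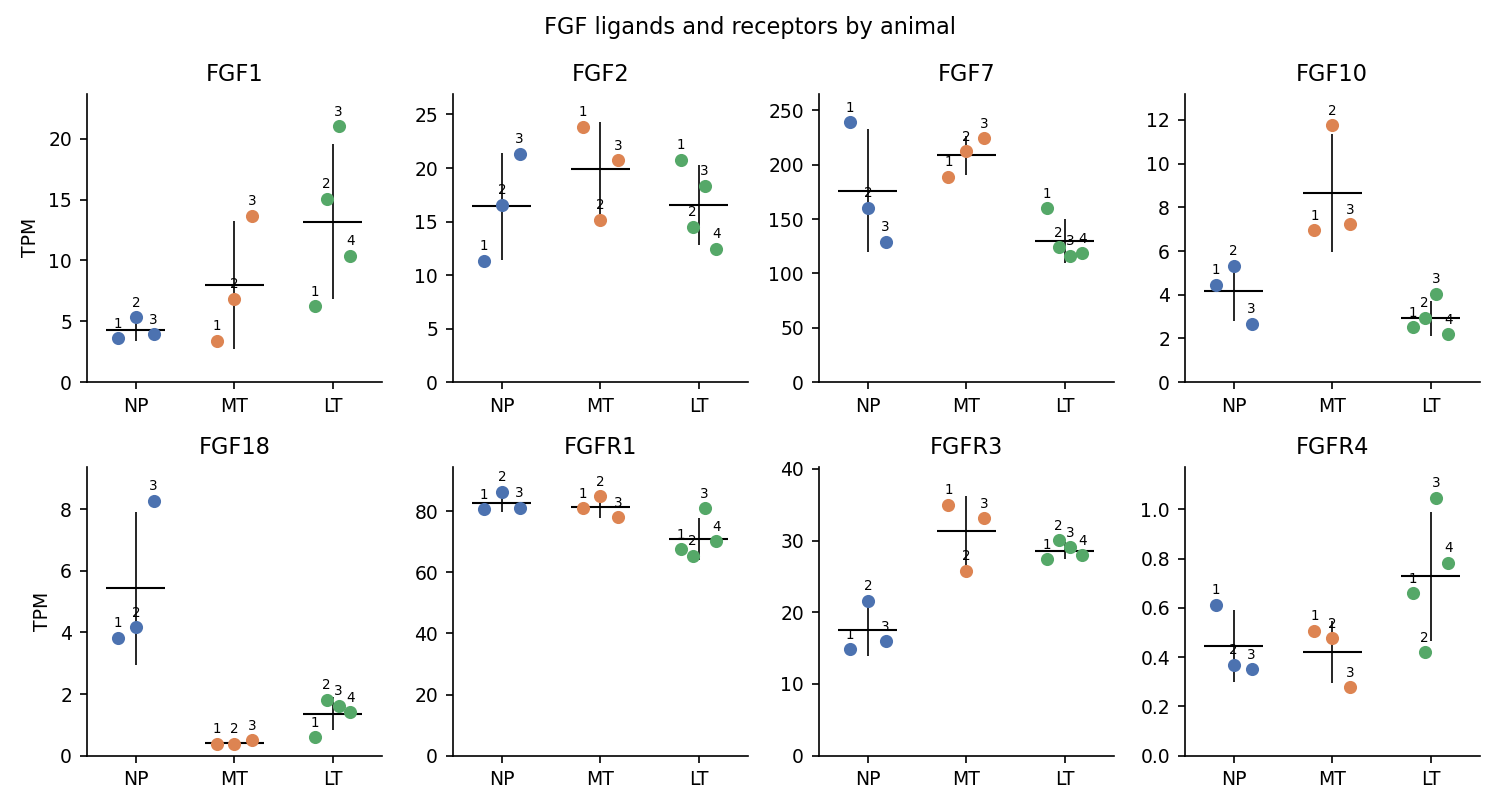
TPM of the 5 ligands and 3 receptors in each animal, with a linear axis from 0 for each gene. Points are animals numbered by replicate, horizontal lines are stage means and vertical lines are 1 SD. FGF10 is highest in MT, FGF18 is highest in NP (3.82 to 8.28 TPM), and FGFR1 ranges only from 65.4 to 86.3 TPM.

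FGFR1 (ENSCPOG00000006553), the receptor typical of stromal cells, was the most abundant receptor, and it was the least variable of these genes in NP and in MT. It was at 80.7, 86.3 and 81.0 TPM in NP, at 81.0, 84.9 and 78.0 TPM in MT and at 67.5, 65.4, 80.8 and 70.2 TPM in LT. LT replicate 3 lay within the range of the earlier stages and the other LT animals lay below it. In the main setting FGFR1 was not called by limma in any comparison, with adjusted P of 0.873 from NP to MT, 0.109 from MT to LT and 0.053 from NP to LT. The exact permutation test of the F statistic gave P = 0.0324, and 0.659 after median-ratio scaling. The log2 change from NP to LT was -0.22, and it was 0.07 after that scaling. Without LT replicate 3 the limma adjusted P was 0.0495 from MT to LT and 0.0175 from NP to LT. With all animals, the limma adjusted P from NP to LT was 0.0465 without a filter on low values and 0.0499 on square-root TPM.

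FGFR3 (ENSCPOG00000025595), a receptor found in squamous epithelia and cartilage, was higher in both stages of pregnancy than in NP. It was at 14.9, 21.6 and 16.0 TPM in NP, at 35.0, 25.8 and 33.2 TPM in MT and at 27.4, 30.1, 29.0 and 27.9 TPM in LT. All pregnant animals were above all NP animals, and MT and LT overlapped. FGFR3 rose by 0.81 on the log2 scale from NP to MT (standard error 0.15, limma adjusted P = 0.00662) and by 0.70 from NP to LT (standard error 0.14, adjusted P = 0.00269). Relative to the median of all genes these were 0.95 and 0.97. Both increases passed in all alternative settings, and the exact permutation test of the F statistic gave P = 0.00571. From MT to LT the log2 change was -0.12 (adjusted P = 0.557).

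FGFR4 (ENSCPOG00000022113) stayed under the threshold, at 0.351 to 0.613 TPM (NP), 0.277 to 0.508 TPM (MT) and 0.421 to 1.05 TPM (LT), from 15 to 65 reads. The stages overlapped, and the exact permutation test of the F statistic gave P = 0.142.

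Among the 3 receptors measured, FGFR3 took a larger share of the summed TPM in pregnancy. It held 15.5%, 20.0% and 16.4% in the NP animals, 30.0%, 23.2% and 29.8% in MT and 28.7%, 31.4%, 26.2% and 28.2% in LT. The mean share was 17.3% ± 2.37 in NP, 27.7% ± 3.85 in MT and 28.6% ± 2.13 in LT (SD, n = 3, 3 and 4). It was 10.4 percentage points higher in MT than in NP (exact permutation test, P = 0.1, the lowest possible) and 11.3 points higher in LT than in NP (exact permutation test, P = 0.0286). MT and LT differed by 0.938 points (exact permutation test, P = 0.686), and by -1.28 points without MT replicate 2. FGFR1 held 79.7% to 83.9% in NP, 69.5% to 76.3% in MT and 68.2% to 72.9% in LT. In all 9 such comparisons were made, the shares add up to the whole in each animal, and these P-values are not adjusted. FGFR2 would lower every share.

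**Figure D4:**
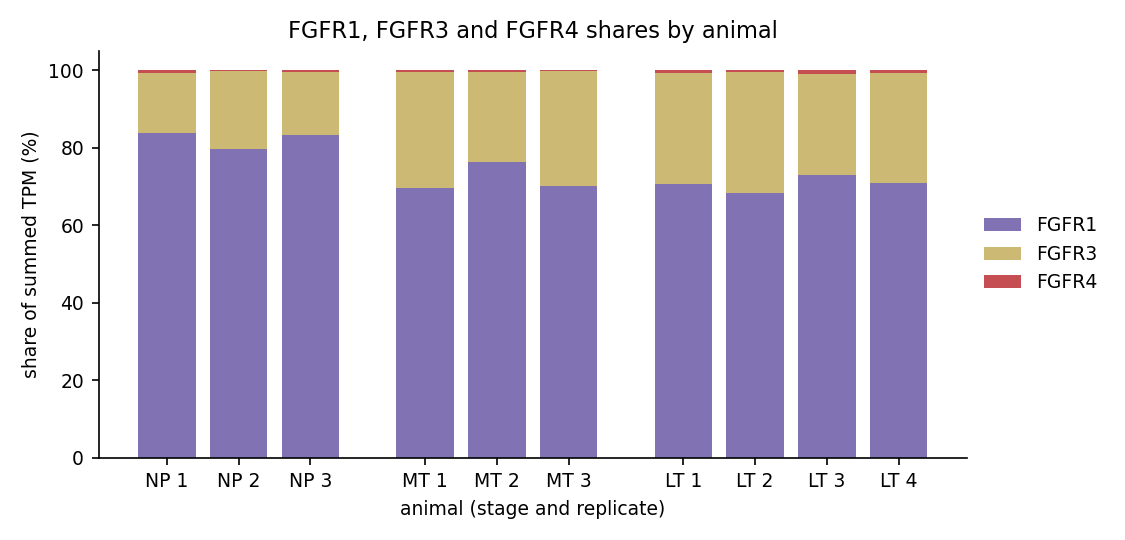
Share of FGFR1, FGFR3 and FGFR4 in their summed TPM, in percent, as 1 stacked bar for each animal. FGFR3 takes 15.5% to 20.0% in NP and 23.2% to 31.4% in the pregnant animals, and FGFR4 is under 1% in all animals.

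The order of the mean TPM in NP was FGF7, FGFR1, FGFR3, FGF2, FGF18, FGF1, FGF10, FGFBP1 and FGFR4. FGFR3 and FGF2 overlapped between animals there, as did FGF18, FGF1 and FGF10 as neighbours, and FGFBP1 and FGFR4. In MT FGFBP1 stood between FGFR1 and FGFR3 and overlapped with both, FGF10 overlapped with FGF1, and FGF18 with FGFR4. In LT FGFBP1 was first, with all animals above those of FGF7, while FGF2 overlapped with FGF1 and FGF18 with FGFR4. The TPM of FGFBP1 was 0.00304 to 0.00504 times that of FGF7 in the NP animals, 0.0788 to 0.653 times in MT and 1.16 to 4.84 times in LT.

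By the same measure of nearness, the genes nearest to FGF10 were MID1 (0.246), ZNF469 (0.251) and ZBTB16 (0.276), where FGF10 itself varied by 0.613 about its mean. ZBTB16 is a zinc finger transcription factor, and it was at 17.2 ± 3.87 TPM (NP), 31.8 ± 3.66 TPM (MT) and 14.4 ± 2.85 TPM (LT). SDK2, USP53 and CA12 were nearest to FGF7 (0.114 to 0.137), and SPINK14, TPMT and COX4I2 to FGF18 (0.336 to 0.36). NDRG1, Y_RNA and PLIN2 were nearest to FGF1 (0.373 to 0.419), and MRPL43, SMYD2 and ATP11A to FGFR3 (0.103 to 0.136). The lipid droplet protein PLIN2 was at 51.6 ± 8.64 TPM (NP), 72.4 ± 13.5 TPM (MT) and 113 ± 19.3 TPM (LT).

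Other genes of the pathway were taken from 5 lists with 78 genes, of which 73 have a row and 53 were tested. Between NP and MT 1 of the 53 was higher and 9 were lower (18.9% called, against 18.5% of all genes). Between MT and LT 7 were higher and 18 lower (47.2%, against 29.4%), and from NP to LT 5 were higher and 26 lower (58.5%, against 53.1%). After median-ratio scaling the split was 2 higher and 6 lower from NP to MT, 12 and 11 from MT to LT, and 10 and 16 from NP to LT. The number called from MT to LT was 12 without MT replicate 2, 15 without MT replicate 3 and 16 without LT replicate 3 or 4. Between NP and MT it was 6 without MT replicate 3.

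Of 17 other FGF ligands and homologous factors, 16 have a row and 2 were tested. No read was counted for 4 of the 16 in any animal, and 9 had 10 or fewer reads over all 10 animals. FGF12, an intracellular homologous factor, fell by 1.68 on the log2 scale from NP to LT (limma adjusted P = 0.0117), from 6.74 ± 4.91 to 1.06 ± 0.224 TPM. It passed the filter only through NP, where it was high. FGF13, a homologous factor of the same kind, was at 19.7 to 34.7 TPM in all animals and was not called.

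Among the binding proteins and coreceptors, GPC6 had the largest change. GPC6 is a glypican, a cell surface proteoglycan that carries heparan sulfate. It was at 0.17 to 1.43 TPM in the NP animals, at 11.6 to 16.7 TPM in MT and at 11.1 to 16.0 TPM in LT. It rose by 3.20 on the log2 scale from NP to MT (adjusted P = 0.000142) and by 3.15 from NP to LT (adjusted P = 4.24e-05), and the pregnant animals did not overlap with NP. It passed the filter only through MT and LT, where it was high.

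FLRT3, a membrane protein that binds FGF receptors, fell by 1.25 on the log2 scale from NP to MT (adjusted P = 0.00975), from 20.4 ± 7.27 to 7.76 ± 1.23 TPM (SD). The syndecan SDC1, a heparan sulfate proteoglycan of epithelia, rose by 1.01 from MT to LT (adjusted P = 0.0276), from 189 ± 71.8 to 365 ± 52.2 TPM. Its call was lost without MT replicate 2 or 3 and without LT replicate 2, 3 or 4 (adjusted P up to 0.116). The basement membrane proteoglycan HSPG2 fell by 0.62 from MT to LT (adjusted P = 0.00939; 0.0658 after median-ratio scaling). GPC3 was lower in LT than in NP by a log2 change of -0.99 (adjusted P = 0.00546). Of the 13 tested genes of this list, 2 were called from NP to MT, 3 from MT to LT and 6 from NP to LT, where 18.5%, 29.4% and 53.1% of all genes were called. From NP to LT 1 was higher and 5 were lower, and after median-ratio scaling 3 were higher and 1 was lower. Between MT and LT the split was 2 higher and 1 lower, and 3 higher and none lower after scaling. None was called higher in this step without MT replicate 2 or 3 or without LT replicate 2, 3 or 4, and 1 was called lower in each of these fits. The median log2 change of the list was -0.17, -0.05 and -0.16 in the 3 comparisons, and -0.05, 0.11 and 0.12 after scaling. The decoy receptor FGFRL1 was at 17.2 to 22.0 TPM in all animals and was not called.

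Among the adaptors and RAS-MAPK kinases, 19 of 20 listed genes were tested. Between NP and MT 3 were lower and none was higher, from MT to LT 2 were higher and 9 lower, and from NP to LT 1 was higher and 11 were lower. Of all tested genes 12.2%, 22.7% and 41.9% were lower in these comparisons, and 6.27%, 6.73% and 11.2% were higher. The medians of the list were -0.14, -0.24 and -0.31, against -0.14, -0.16 and -0.28 for all genes. After median-ratio scaling the calls were none higher and 1 lower from NP to MT, 5 higher and 7 lower from MT to LT, and 3 higher and 8 lower from NP to LT. The 9 called lower from MT to LT became 4 without MT replicate 2 and 6 without MT replicate 3 or LT replicate 2, 3 or 4. The 3 called lower from NP to MT became 0 without NP replicate 2 or MT replicate 2 or 3, 1 without any other animal but NP replicate 1, and 5 without NP replicate 1. The adaptor GAB1 was at 39.2, 45.3 and 42.7 TPM in NP, 30.0, 35.5 and 34.8 TPM in MT and 18.7, 20.9, 19.7 and 18.9 TPM in LT, without overlap between the stages. GAB1 fell by 0.74 on the log2 scale toward LT (adjusted P = 0.00182), and its fall of 0.34 between NP and MT (adjusted P = 0.0405) was lost in 15 settings, among them median-ratio scaling (0.115) and each MT or LT animal left out. PLCG1, the phospholipase that binds the activated receptors, fell by 0.88 from MT to LT (adjusted P = 0.00464), and the ubiquitin ligase CBL fell by 0.58 (adjusted P = 0.00646). FRS3, a docking protein of the receptors, fell by 0.56 in this step (adjusted P = 0.0175; 0.0786 without MT replicate 2). SOS1, an activator of RAS, was lower in LT than in NP by a log2 change of -0.83 (adjusted P = 0.00041). SOS1 and the adaptor SHC1 were also lower in MT than in NP, with log2 changes of -0.48 (adjusted P = 0.0236) and -0.50 (adjusted P = 0.0421). The call of SHC1 was lost in 16 settings, among them median-ratio scaling (0.212) and each MT or LT animal left out. That of SOS1 was lost in 6, among them the fits without NP replicate 2 or 3 and without MT replicate 2 or 3 (0.052 to 0.0862).

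Of 11 listed feedback inhibitors 10 were tested, and from MT to LT 7 were lower and none was higher, where 22.7% of all genes were lower, with a median of -0.56 against -0.16 for all genes. After median-ratio scaling 4 were lower and none higher. The number lower was 3 without MT replicate 3, 4 without MT replicate 2 or LT replicate 4, and 5 in all of the fits without MT replicate 1, LT replicate 1 or LT replicate 3. Between NP and MT 3 were lower and none was higher, with a median of 0.11 (-0.05 without NP replicate 1), and after scaling 2 were lower and 1 was higher. Of all genes 12.2% were lower and 6.27% higher in this comparison. Between NP and LT 6 were lower and 2, DUSP6 and SPRED3, were higher, with the same numbers after scaling. Neither was called higher without NP replicate 3, and 1 of them was called without NP replicate 1 or 2, without MT replicate 1 or 3 and without LT replicate 2, 3 or 4. Of all genes 41.9% were lower and 11.2% higher.

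SPRY2, a Sprouty protein, was at 26.9, 47.8 and 37.2 TPM in NP, at 34.7, 52.1 and 36.6 TPM in MT and at 20.9, 17.8, 18.6 and 16.0 TPM in LT. Every LT animal was below every animal of the other stages, and SPRY2 fell by 1.11 on the log2 scale from MT to LT (SE 0.20, adjusted P = 0.00466). IL17RD, which blocks the signal near the receptor, was at 22.5, 22.7 and 15.9 TPM in NP, at 12.0, 12.5 and 11.6 TPM in MT and at 4.87, 5.97, 5.96 and 5.52 TPM in LT. It fell in both steps without overlap, by 0.70 (adjusted P = 0.0109) and by 0.99 (adjusted P = 0.00224). SPRED2 fell by 0.74 from MT to LT (adjusted P = 0.00281). These 3 decreases from MT to LT passed in all alternative settings.

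The MAPK phosphatase DUSP4 was at 15.1 to 29.6 TPM (NP), 3.47 to 8.77 TPM (MT) and 0.41 to 3.11 TPM (LT). From NP to LT DUSP4 fell by 3.21 on the log2 scale (adjusted P = 0.000328). It passed the filter only through NP and MT, where it was higher. The call held in all alternative settings, one of them without a filter, where the highest limma, edgeR or DESeq2 adjusted P was 0.00435. DUSP5 fell by 2.31 from NP to MT (adjusted P = 0.0132), and in NP it was at 54.5, 19.8 and 11.3 TPM, highest in replicate 1.

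**Figure D5:**
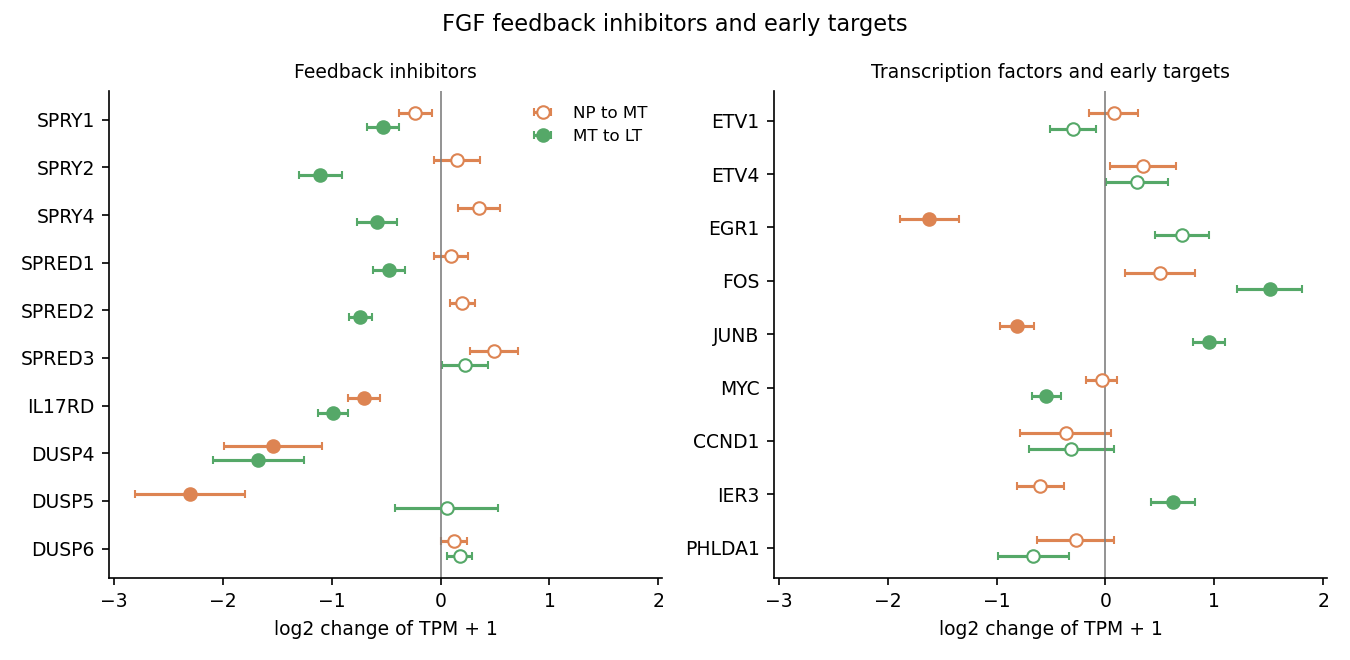
Log2 change of TPM + 1 from NP to MT and from MT to LT for the tested feedback inhibitors and the tested transcription factors and early targets, with standard errors as bars. Filled points have a limma adjusted P under 0.05. From MT to LT 7 of the 10 inhibitors are called lower, 4 after median-ratio scaling, whereas FOS and JUNB are called higher.

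Among the transcription factors and early targets, 9 of 11 listed genes were tested. Between NP and MT 2 were lower and none was higher, from MT to LT 3 were higher and 1 was lower, and from NP to LT 1 was higher and 3 were lower. The shares of all genes were 12.2% lower in the first of these comparisons, 6.73% higher and 22.7% lower in the next, and 11.2% higher and 41.9% lower in the last. After median-ratio scaling 2 were higher and none was lower from NP to LT, and 4 were higher and none lower from MT to LT. The medians were -0.27, 0.29 and -0.22 in the 3 comparisons, and their signs were not stable. The first was 0.01 without NP replicate 2, the next was -0.09 without MT replicate 2, and the last was 0.04 after median-ratio scaling. FOS, a subunit of the AP-1 factor that many stimuli induce, was at 37.9, 26.4 and 28.8 TPM in NP, at 60.3, 29.9 and 46.4 TPM in MT and at 74.5, 158, 133 and 161 TPM in LT. All LT animals were above all others, and FOS rose by 1.51 on the log2 scale from MT to LT (adjusted P = 0.00667). JUNB, another AP-1 subunit, fell by 0.81 from NP to MT (adjusted P = 0.00801) and rose by 0.95 from MT to LT (adjusted P = 0.00315). EGR1, an immediate early factor, fell by 1.62 from NP to MT (adjusted P = 0.00395), from 81.6 ± 10.6 to 25.9 ± 3.57 TPM. MYC fell by 0.54 from MT to LT (adjusted P = 0.0164; 0.0823 after median-ratio scaling and 0.0704 without MT replicate 2). IER3, a stress-induced early gene, rose by 0.62 in this step (adjusted P = 0.0448). Its call was lost in 8 settings, among them the fits without MT replicate 2 or 3 and without LT replicate 2, 3 or 4 (0.0829 to 0.171). PHLDA1 was lower in LT than in NP by a log2 change of -0.94 (adjusted P = 0.0355), and lost its call in 11 settings, among them median-ratio scaling (0.142) and the fits without NP replicate 1 or 2, MT replicate 3 and LT replicate 3 or 4 (0.0501 to 0.12).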

How the data were processed

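Libraries of 10 animals (3 NP, 3 MT, 4 LT) were sequenced strand-specifically. Per the labels and the methods, the authors aligned reads with TopHat2 to the guinea pig genome and made the deposited read counts with HTSeq-count 0.5.4p1. The TPM values were also deposited by the authors, and both units were used as deposited. The TPM of an animal sum to the same total, so that a gene's TPM also moves with all other genes.

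Genes whose mean reached 3 TPM in 1 stage or more were tested with limma 3.58.1 (R 4.3.3, trend, two-sided) on log2(TPM + 1), with stage as the only term and Benjamini-Hochberg adjustment. The study used t-tests on square-root TPM; exact permutation tests on that scale were used here. Alternatives included edgeR 4.0.16 (quasi-likelihood, TMM), DESeq2 1.42.0, other filters, scales and scalings, a replicate block and each animal left out. The fits were tested on simulated counts with planted changes. Of planted 2-fold changes limma recovered 56% from NP to MT, 63% from MT to LT and 66% from NP to LT. It recovered 100% of planted 4-fold changes, so a gene that was not called may still have changed.

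The genes and lists were chosen with earlier results of these data known. Named pathway genes are up to 4 per list and comparison, those with the largest called change without overlap between animals. Others named (KRT14, SPRR3, IVL, TGM1, DSG3, PKP1, COL1A1, COL1A2, PDGFRA, PDGFRB, LUM, FGF13, FGFRL1, DUSP6, SPRED3 and the genes in the closing section) were chosen after their values were seen. Marker sums without their most abundant genes were added after seeing the data. The gene table used has no sequences, so none are shown.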

Additional observations from a re-analysis of the deposited data

How the results depend on the processing

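The number of ligands and receptors called was 3 from NP to MT, 2 from MT to LT and 3 from NP to LT. From MT to LT it was 1 after median-ratio scaling and 1 with the replicate block. With each animal left out it ranged from 2 to 4 from NP to MT, from 1 to 3 from MT to LT and from 2 to 3 from NP to LT. The pathway genes called with the replicate block were 6 from NP to MT, 10 from MT to LT and 28 from NP to LT, and with an animal left out they ranged from 6 to 13, from 12 to 30 and from 26 to 33. The replicate numbers pair no animals: same-numbered animals correlated between -0.287 and 0.254 in their deviations from the stage means, and the block called 1577, 1693 and 5448 of all genes in the 3 comparisons in place of 2342, 3723 and 6718. DESeq2 called 3121, 4571 and 6783.

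The sign of changes that were not called turned in some settings; the cause was not tested. The log2 change of FGFR1 from NP to MT was 0.0989 after median-ratio scaling, 0.0955 in edgeR, 0.123 in edgeR without a filter, 0.0981 in DESeq2, 0.00645 without NP replicate 2 and 0.00462 without MT replicate 3 (range with an animal left out -0.0556 to 0.00645). From NP to LT these first 4 settings gave 0.0699, 0.0732, 0.137 and 0.0751, and from MT to LT edgeR without a filter gave 0.0131. For FGFR3 from MT to LT they gave 0.0487, 0.0407, 0.0752 and 0.039. FGF2 from NP to LT was at -0.201 without NP replicate 1, -0.0871 without LT replicate 1 and -0.0295 without LT replicate 3 (range -0.201 to 0.227). The difference of the FGFR3 share ranged from 9.21 to 12.6 points from NP to MT, from -1.28 to 2.12 from MT to LT and from 10.4 to 12.7 from NP to LT with each animal left out, where fewer animals cannot give P under 0.05. The exact F test passed for 4 of 8 genes, and for 3 to 4 with an animal left out. Precision at low levels is limited by reads: FGF18 in MT and FGFBP1 in NP rest on at most 7 and 13 reads per animal.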

Other observations

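Reads of FGF23, a hormone of phosphate balance, were found mainly in a pair of LT animals. Its counts were 1, 0 and 0 reads in NP, 0, 0 and 1 in MT, and 2, 4, 24 and 41 in LT, which is up to 2.35 TPM. FGF5 had 10 and 11 reads in the same LT animals and 0 to 2 reads in all others. Both stayed under 3 TPM and were tested only in the fits without a filter. In edgeR FGF23 was called higher from MT to LT (adjusted P = 0.0318) and from NP to LT (adjusted P = 0.0145), and in limma it was not (0.119 and 0.08). FGF5 was not called in either tool, with adjusted P of 0.0922 or more. The summed TPM of the 8 smooth muscle markers was 38141 and 39435 in these LT animals, replicates 3 and 4, and 19050 and 19044 in replicates 1 and 2. NP replicate 1 had a sum of 30766, with 1 read of FGF23 and 0 reads of FGF5. The part of smooth muscle in these reads was not tested. The endocrine coreceptor KL was at 0.0554 to 0.279 TPM in all animals, and KLB at 0.228 to 0.935 TPM.

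Of 10 leukocyte markers 8 have a row, and their summed TPM was 2305 to 3870 (NP), 2131 to 5582 (MT) and 7157 to 10922 (LT). Most of this sum is S100A8, a calcium-binding protein abundant in neutrophils and also made by stressed squamous epithelium. Without S100A8 the sums were 88.8 to 179, 92.3 to 109 and 122 to 225 TPM in the same order of stages. By single genes, S100A8 and CD14 were higher from MT to LT and none of the 6 tested was lower, against 6.73% of all genes higher and 22.7% lower. From NP to LT these were higher and PTPRC was lower (8.72 to 23.4 TPM in NP and 5.08 to 9.57 in LT), and CD3E was at 2.82 to 8.58 TPM in MT and 0.795 to 3.78 TPM in LT without a call. The endothelial sum was 150.3 to 200.5 TPM (NP), 106 to 159 TPM (MT) and 61.2 to 97.5 TPM (LT), and 5 of 6 tested markers were lower from MT to LT, against 22.7% of all genes. After median-ratio scaling, which splits the calls of all genes into 1776 higher and 1939 lower in place of 851 and 2872, 3 of the 6 were lower. Their part in the levels of FGF ligands, receptors, feedback inhibitors and other genes of the pathway was not tested.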
